A study of Mus musculus with 2 samples.

Results

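The regions described here are open chromatin sites around the odorant and pheromone receptor genes of the mouse, in cells of the male germline in which Stag3 had been knocked out. A region was taken when a peak of replicate 1 was overlapped by a peak of replicate 2 by at least 1 bp and lay within 20 kb of a protein-coding gene named Olfr, Vmn1r or Vmn2r. It also had to lie more than 1000 bp from both ends of every other protein-coding gene. Of 83732 shared regions, 352 met this rule, or 0.420%. The end limit removed 51 others that lay equally close to a receptor gene. In 12 of the 352, the replicate 2 peak was also the partner of a neighbouring region, so these are not independent sites.

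The study profiled open chromatin by ATAC-seq, in which the Tn5 transposase cuts and tags accessible DNA. Both libraries came from Stag3 KO cells of the type the labels call GSC, with Acrosin-EGFP and beta-Actin-EGFP transgenes, from which viable cells with reporter signal were sorted. Stag3 encodes a cohesin subunit, and cohesin folds interphase chromosomes into loops. There was 1 group of 2 libraries, so no value below compares the knockout with another genotype, and no test between groups was possible. Nothing in the labels ties the libraries to separate cultures, and their differences may therefore be technical. Replicate 1 held 107331 peaks and replicate 2 held 98986. Shared regions lay within 1000 bp of a gene end for 15 of 15 markers of undifferentiated spermatogonia, 3 of 8 of olfactory neurons and 4 of 8 of Sertoli and feeder cells. Over all protein-coding genes the share was 65.8%, and these short lists do not measure the purity of the cells.

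Olfr genes encode the odorant receptors of the nose. Vmn1r and Vmn2r genes encode the V1R and V2R receptors of the vomeronasal organ, which detects pheromones and other social cues. All are G protein-coupled receptors. They stand in dense tandem clusters on many chromosomes. An olfactory neuron transcribes a single odorant receptor allele, while the remaining copies are held in heterochromatin marked by H3K9 and H4K20 methylation. The chosen gene is activated by enhancers, some of them inside the clusters and called Greek islands, which bind Lhx2, Ldb1 and Ebf factors.

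The reference table placed 1465 receptor genes, namely 1110 Olfr, 231 Vmn1r and 124 Vmn2r, among 21887 protein-coding genes. The annotated model had a median length of 950 bp for Olfr, 924 bp for Vmn1r and 24392 bp for Vmn2r genes, and 85.2% of Olfr and 88.3% of Vmn1r models were shorter than 1500 bp. V1R and odorant receptor genes carry their coding sequence in a single exon, so the listed start of a short model may be that of the coding exon and not of the first, noncoding exon.

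Sequence just before the listed starts of receptor genes almost never overlapped a shared region. For short models this sequence may precede the coding exon and not the first exon, so it may not be the promoter. RefSeq promoter windows on GRCm38.p6, read as the 250 bases before each listed start, were at hand for 1267 receptor genes, and 4 of their 1272 windows overlapped a shared region, or 0.314%. All 4 belonged to Olfr genes. Of 21263 windows of all protein-coding genes, 57.9% overlapped a shared region. The 4 windows are printed because they are the only ones of the 1272 that a shared region touched, in part or almost whole; whether transcription starts there is not known from these data. Each is written 5′ to 3′ on the strand of its gene, and the capitals mark the bases covered by the replicate 1 peak.
Olfr750, chr14:51071443-51071692, minus strand: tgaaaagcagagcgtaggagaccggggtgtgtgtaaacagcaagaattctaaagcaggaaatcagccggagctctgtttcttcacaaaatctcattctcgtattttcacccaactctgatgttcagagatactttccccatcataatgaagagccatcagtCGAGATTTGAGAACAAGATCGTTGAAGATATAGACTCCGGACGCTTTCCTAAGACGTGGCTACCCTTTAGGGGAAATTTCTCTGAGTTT
Olfr883, chr9:38025558-38025807, plus strand: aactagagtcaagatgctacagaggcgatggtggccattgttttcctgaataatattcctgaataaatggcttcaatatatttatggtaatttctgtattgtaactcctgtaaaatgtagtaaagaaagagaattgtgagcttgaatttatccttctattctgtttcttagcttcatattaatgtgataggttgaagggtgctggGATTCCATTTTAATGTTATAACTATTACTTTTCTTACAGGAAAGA
Olfr94, chr17:37197967-37198216, minus strand: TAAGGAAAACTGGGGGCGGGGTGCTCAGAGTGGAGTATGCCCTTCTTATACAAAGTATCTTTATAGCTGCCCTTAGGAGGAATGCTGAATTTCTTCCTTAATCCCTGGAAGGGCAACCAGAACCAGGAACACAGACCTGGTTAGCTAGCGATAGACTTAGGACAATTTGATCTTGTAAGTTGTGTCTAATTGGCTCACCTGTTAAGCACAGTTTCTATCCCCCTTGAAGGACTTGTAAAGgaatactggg
Olfr95, chr17:37211852-37212101, minus strand: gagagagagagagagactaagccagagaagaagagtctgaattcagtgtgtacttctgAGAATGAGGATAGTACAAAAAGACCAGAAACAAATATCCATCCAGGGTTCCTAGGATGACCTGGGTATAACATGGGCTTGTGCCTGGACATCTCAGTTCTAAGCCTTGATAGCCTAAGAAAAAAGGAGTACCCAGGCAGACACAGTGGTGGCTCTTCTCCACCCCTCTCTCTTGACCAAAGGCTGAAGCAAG

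The region at Olfr94 covered 240 of the 250 bases, the one at Olfr95 covered 192, the one at Olfr750 covered 89 and the one at Olfr883 covered 45. Olfr94 and Olfr95 are neighbours in an odorant receptor cluster of 46 genes on chromosome 17. The fold enrichment, the peak caller's ratio of tags at the summit to the local background, was 15.2 in replicate 1 and 19.4 in replicate 2 at Olfr94. It was 9.34 and 10.5 at Olfr95, 6.25 and 7.35 at Olfr750, and 13.5 and 8.64 at Olfr883. Replicate 2 was the higher library at Olfr94, Olfr95 and Olfr750, and replicate 1 at Olfr883.

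Receptor windows differed from the windows of all protein-coding genes in their letters. Their median GC content was 34.8%, against 55.6% over all protein-coding windows, and the median number of CpG dinucleotides was 1 against 10. The 4 windows in a region had a median GC content of 44.4% and held between 0 and 9 CpG dinucleotides, with 9 at Olfr750. A set of 5 short words were searched on both strands: TATAAA, the core of the TATA box; CGCG, found in CpG islands; TAATTA, a homeodomain core of the kind Lhx2 binds; CCCNNGGG, a word bound by Ebf factors; and AGGNGGC, from the core of the CTCF site. TATAAA stood in 37.6% of receptor windows and 11.6% of all protein-coding windows. CGCG stood in 0.629% and 43.6%.

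TAATTA was found in 16.1% of receptor windows, against 4.31% of all protein-coding windows, and was most frequent in Olfr windows at 18.0%. CCCNNGGG was found in 3.85%, against 13.5%, but in 19.5% of Vmn2r windows and in none of the 206 Vmn1r windows. AGGNGGC was found in 2.75% against 28.7%. Among the 4 windows that a region touched, TATAAA stood only in the Olfr94 window. It lay on the strand opposite to the gene, printed above as TTTATA from base 60, and so not in the gene's orientation. None of the other words was found in any of the 4 windows. Protein-coding windows outside every shared region lay between: 20.2% held TATAAA, 11.1% held CGCG, and their median GC content was 47.2%. These matches describe letters and do not show a bound factor.

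Counting whole genes gave the same picture. A shared region lay within 1000 bp of a gene end for 26 receptor genes, or 1.77%, against 65.8% of all protein-coding genes and 70.3% of those that are not receptors. These were 22 Olfr, 4 Vmn1r and 0 Vmn2r genes. More distant regions were also fewer. By one rule for all genes, a region within 20 kb that was more than 1000 bp from every gene end was found for 319 receptor genes (21.8%), against 74.4% of all protein-coding genes and 78.2% of those that are not receptors.

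By the rule that defines the 352 regions, which allows them to touch receptor genes, 343 of 1465 receptor genes had at least 1 region within 20 kb. This was 23.4%, with a 95% Wilson interval of 21.3% to 25.6% that covers counting error only. The share was 24.5% for Olfr (272 genes), 15.6% for Vmn1r (36 genes) and 28.2% for Vmn2r (35 genes). Of the 231 Vmn1r genes, 86 stand in 1 cluster that had no region, which lowers the Vmn1r share. The other 1122 receptor genes had none. A region came within 1 kb of 40 genes and overlapped the model of 30, of which 10 were Vmn2r genes.

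Open sites were sparse in the sequence around the receptor genes. The rule could have taken 41.8 Mb, or 1.55% of the extent of the chromosomes, and found 8.42 regions per Mb there. Distal sequence farther than 20 kb from a receptor gene, under the same limit on gene ends, held 25.0 per Mb, which is 2.97 times as many. Gene deserts, meaning sequence more than 100 kb from every protein-coding gene, held 10.2 per Mb. The receptor sequence was thus closer to the gene deserts than to other distal sequence. Olfr surroundings held 10.0 regions per Mb, Vmn2r 6.04 and Vmn1r 5.14, where a region near genes of different families counts for each. The 7.59 Mb of Vmn1r surroundings include 2.69 Mb around 1 cluster of 86 genes, where no region was found, and this lowers the Vmn1r value.

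Density also changed with distance. Inside receptor models there were 33 regions, or 5.77 per Mb. The first 1 kb outside held 10, or 3.44 per Mb. Density was 7.86 per Mb from 1 to 5 kb, with 87 regions, then 10.4 from 5 to 10 kb, with 109, and 9.71 from 10 to 20 kb, with 113. Beyond the limit of the rule it was 13.7 per Mb from 20 to 50 kb, 26.9 from 50 to 100 kb and 31.6 from 100 to 200 kb. The median region lay 6806 bp from its nearest receptor model. Relative to the nearest receptor start in the promoter table, 176 regions lay upstream and 176 downstream. Within 5 kb of a start there were 38 upstream and 40 downstream, and within 1 kb there were 16, of which 5 were upstream.

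**Figure D1:**
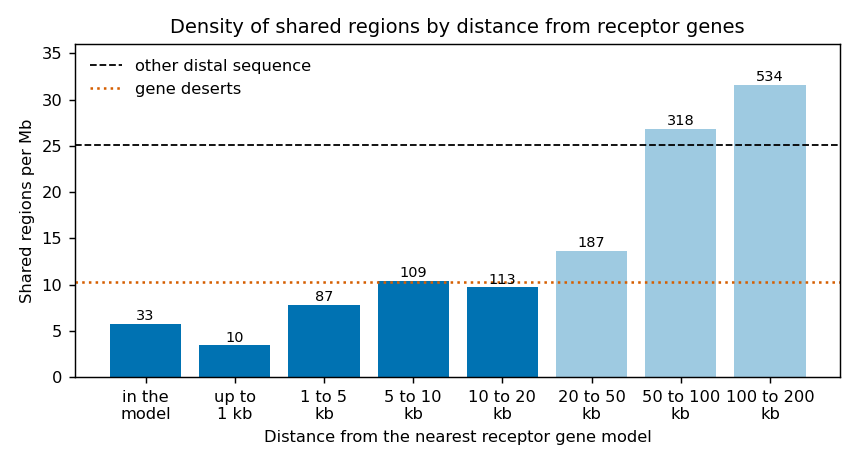
Shared regions per Mb of sequence (vertical axis) in bins of distance from the nearest receptor gene model (horizontal axis), with the number of regions above each bar; dark bars are the 352 regions and light bars lie beyond the limit of 20 kb. Density was 3.44 per Mb in the first 1 kb and 31.6 from 100 to 200 kb, against 25.0 in other distal sequence (dashed line) and 10.2 in gene deserts (dotted line).

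Receptor genes no more than 500 kb apart were joined into clusters, which gave 59 clusters of 2 or more genes and 20 lone genes. A few, at chr4:3536-11935, chr7:94186-172761 and chr17:80755-81681, are listed at the very start of a chromosome and had no peak in either library. Whether these listed positions are true chromosome positions was not checked. Most regions lay inside a cluster: 296 of 352, or 84.1%, stood between its first and last receptor gene, 47 (13.4%) in the 20 kb outside these genes and 9 (2.56%) at a lone gene. The flanks were denser, at 20.9 regions per Mb, than the inside, at 7.65. Within cluster spans, sequence farther than 20 kb from any receptor gene held 17.0 regions per Mb (285 regions, which the rule does not take).

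Pooled by size, larger clusters were sparser, but single clusters varied widely within each size. Clusters of 2 to 9 genes held 13.5 regions per Mb, with single clusters from 0 to 71.9. Of the 73 regions in them, 17 stood in 1 cluster on chromosome 15. Clusters of 10 to 29 genes held 9.71 per Mb (1.59 to 24.7), and those of 30 or more genes 6.75 (0 to 17.3). Lone genes, at 10.4 per Mb, did not follow this order. In the clusters of 10 or more genes, the outermost 10% of the span on each side held 88 regions at 11.7 per Mb. Further in, density was 5.88, 7.89, 4.05 and 5.27 per Mb in successive steps of 10%, with 41, 52, 26 and 36 regions. The edge was the densest part, and the inner steps showed no steady order. At least 1 region was found in 52 of the 59 clusters and at 5 of the 20 lone genes.

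**Figure D2:**
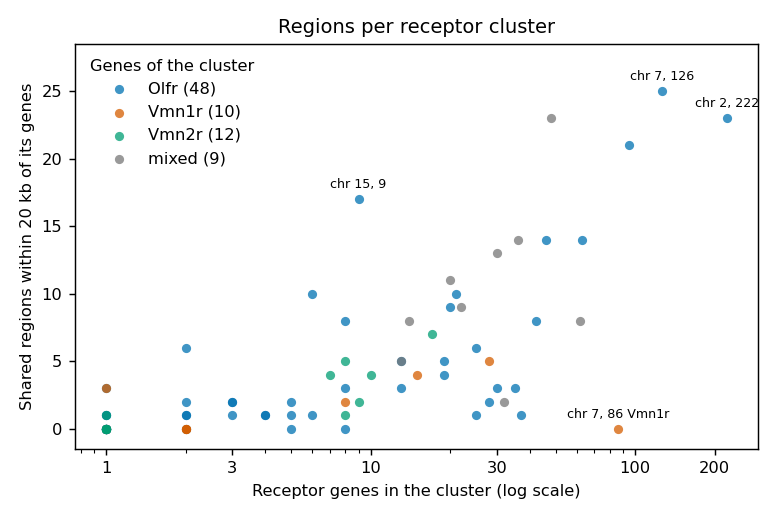
Number of the 352 regions (vertical axis) against the number of receptor genes (horizontal axis, log scale) for 59 clusters and 20 lone genes, coloured by the receptor family of the cluster; labels give the chromosome and the number of genes of 4 clusters. The cluster of 222 Olfr genes on chromosome 2 held 23 regions, that of 9 on chromosome 15 held 17, and that of 86 Vmn1r genes on chromosome 7 held 0.

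The cluster with the most receptor genes, chr2:85330967-90401674, holds 222 Olfr genes and 3 other protein-coding genes. It had 23 regions, or 4.85 per Mb, but these were strong, with a median fold of 16.5 in replicate 1 and 15.6 in replicate 2. These medians leave out peaks of 1 library. By position, replicate 1 had 56 peaks there, 33 of them not found in replicate 2, and replicate 2 had 28, 4 of them not found in replicate 1. Some of the 23 regions stood very far from any other protein-coding gene. The region at chr2:89089482-89089825, 7113 bp from Olfr1220, was 1339931 bp from the nearest end of another protein-coding gene, Ptprj, and had folds of 26.6 and 28.6. The one at chr2:88841646-88841996, 9604 bp from Olfr1205, was 1330781 bp from Pramel6 and had folds of 31.5 and 22.1. Another such site was chr2:89972937-89973552, 4228 bp from Olfr1260 and 456204 bp from Ptprj, with folds of 27.9 and 28.0.

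The clusters of 30 or more genes ran from 0 to 17.3 regions per Mb, so the chromosome 2 cluster stood among them and not at either end. The cluster chr7:102476773-105369317, with 126 Olfr genes, held the most regions of any cluster, 25 or 11.0 per Mb, with median folds of 11.0 and 8.64. The cluster chr9:37711348-40188094, with 95 Olfr genes, held 21, or 9.10 per Mb, with median folds of 10.3 and 7.69. Replicate 1 was the higher library at 17 of these 21. The cluster chr19:11828077-13919972, with 63 Olfr genes, held 14 regions at 9.23 per Mb.

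Clusters of 2 or more genes that were Vmn1r alone ran from 0 to 7.70 regions per Mb and those that were Vmn2r alone from 2.31 to 8.01, against 0 to 71.9 for Olfr alone. The cluster chr7:20101158-24055691 holds 86 Vmn1r genes and had no region in 2.69 Mb open to the rule. Replicate 1 had 1 peak there and replicate 2 had 0, and it was the single cluster of 10 or more genes without a region. The whole span of this cluster, with 18 other protein-coding genes in it, held 1 shared region of any kind. The lack of regions was thus not limited to the surroundings of Vmn1r genes. Whether reads that map to several places lowered the counts there was not tested. The mixed cluster chr13:21072349-23250323, with 36 Vmn1r and 12 Olfr genes and 37 other protein-coding genes in its span, held 23 regions at 17.3 per Mb. Its median fold was 9.64 in replicate 1 and 14.7 in replicate 2, and replicate 1 was higher at 7 of the 23.

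The cluster chr15:98186011-98498406 holds 9 Olfr genes and had 17 regions, or 60.0 per Mb. It spans 312 kb. Its strongest regions were chr15:98462243-98462685, 4996 bp from Olfr281, with folds of 31.8 and 29.8, and chr15:98494192-98494591, 2883 bp from Olfr279, with 29.8 and 28.2. Both libraries gave high values at both sites. Its weakest was chr15:98378303-98378772, which overlaps Olfr283, with 5.02 and 4.48. By chromosome, 84 of the 352 regions lay on chromosome 7, which has 417 receptor genes. Chromosome 16 had 1 region for 36 receptor genes, and chromosome X had 0 for 7.

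**Figure D3:**
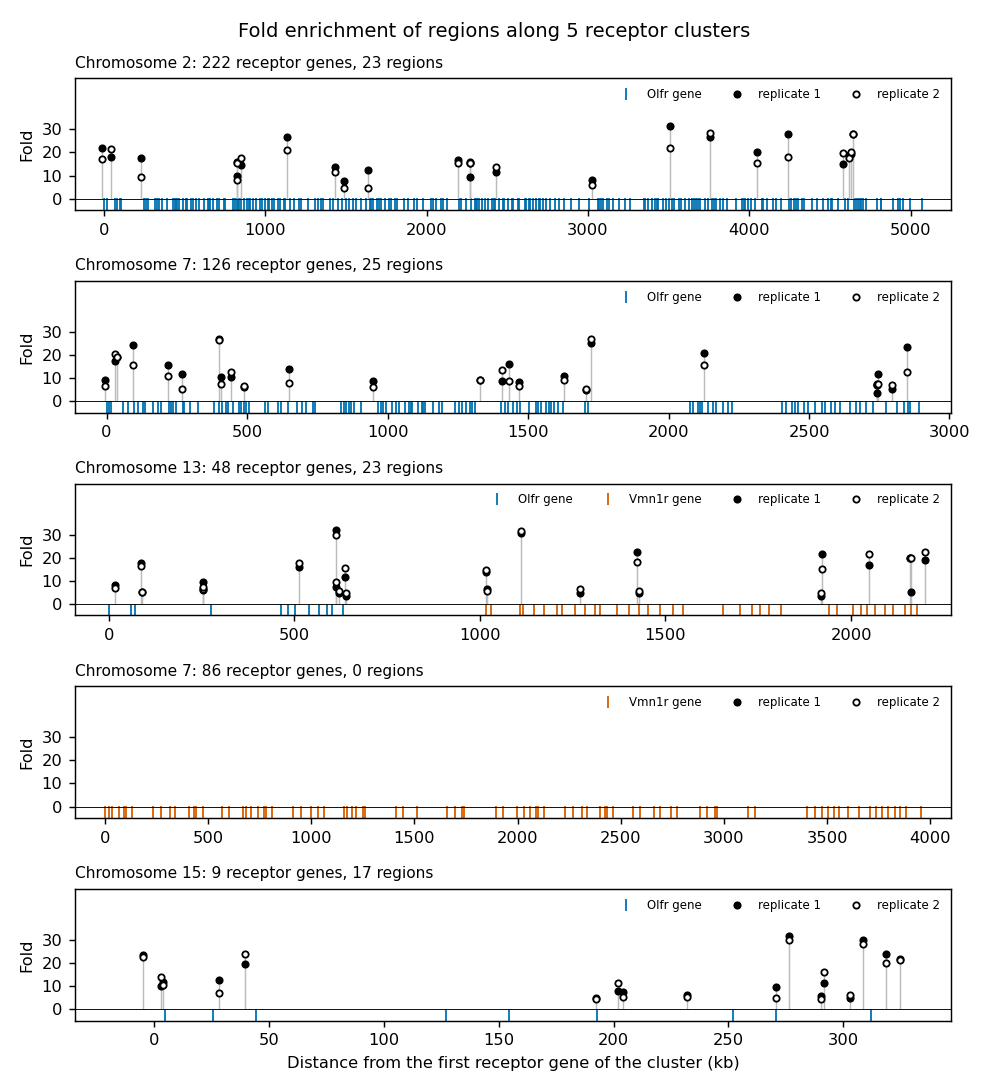
Fold enrichment (vertical axes) of each region along 5 receptor clusters, by distance in kb from the first receptor gene (horizontal axes, a different scale in each panel); filled and open circles are replicate 1 and replicate 2, and ticks under the line mark receptor genes. The panels hold 23, 25, 23, 0 and 17 regions, and in the first of them folds near 30 stand in the midst of Olfr genes.

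Although sparse, the regions that recurred were about as strong as shared regions elsewhere in replicate 1 and somewhat weaker in replicate 2. The median fold was 11.3 in replicate 1 and 9.28 in replicate 2, a mean of 10.3 ± 1.42 (SD, n = 2 libraries). It was 10.9 and 10.6 over all shared regions, 10.7 and 10.1 over other distal regions, 11.6 and 10.0 in gene deserts and 11.2 and 12.02 at gene ends. The quartiles were 7.21 and 17.4 in replicate 1 and 6.25 and 15.8 in replicate 2, and the range was 2.52 to 35.4 and 3.26 to 35.1. In replicate 1 the median of the 352 stood within the range of the comparison groups, and in replicate 2 it was below all of them. These medians hold only for peaks found in both libraries. That filter kept 59.5% of replicate 1 peaks near receptors, against 78.0% of all its peaks, and it removed mostly weak ones. Before it, the 592 replicate 1 peaks had a median fold of 7.84. By quartile of fold over the whole library, from lowest to highest, they numbered 167, 168, 144 and 113.

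The extremes were thinly filled. The fold was above the library's median peak in both libraries in 168 of the 352 (47.7%), against 51.6% of all shared regions. In both libraries 16 regions (4.55%) reached the top decile of peaks, against 9.52% of all shared regions, and 1 (0.284%) was in the bottom decile, against 3.08%. By place, the 9 regions at lone genes had the highest medians, 19.8 and 20.7, against 11.3 and 9.12 inside clusters and 10.4 and 9.60 in flanks. By nearest family the medians were 11.3 and 9.40 for Olfr (268 regions), 12.4 and 9.33 for Vmn1r (38) and 10.8 and 8.64 for Vmn2r (46). The families differed by less than the libraries did.

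**Figure D4:**
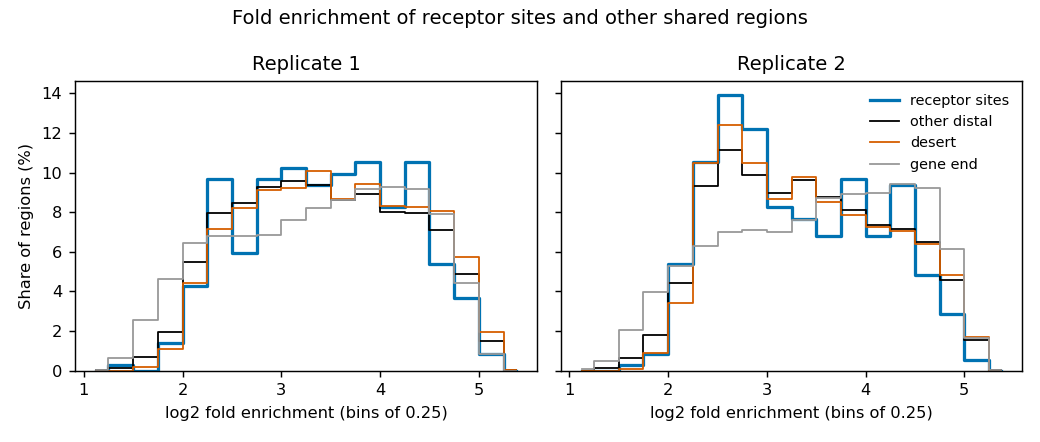
Share of regions in percent (vertical axis) by log2 fold enrichment in bins of 0.25 (horizontal axis) in each library, for the 352 receptor sites, other distal regions, gene deserts and gene ends. The receptor sites had medians of 11.3 and 9.28 on the linear scale, and in replicate 2 their curve is highest at the low folds.

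The strongest region, chr7:107166678-107167299, had folds of 35.4 in replicate 1 and 35.1 in replicate 2. It lay 18349 bp outside the last gene of its cluster, Olfr716, and inside the body of Nlrp14. Next was chr17:37246678-37247143, 14310 bp from Olfr97, with 33.3 and 34.3. After it came chr1:92538170-92538534, 19655 bp from Olfr1414, with 33.6 and 31.6. All 3 were among the strongest peaks of both libraries.

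Further strong sites were chr13:22181736-22182243, 2154 bp from Vmn1r191, with folds of 30.6 and 31.5, and chr4:118650334-118650780, 14739 bp from Olfr62, with 31.2 and 30.8. The site chr13:21685324-21685636, 10344 bp from Olfr1360, had 31.9 and 29.9. The other 4 of the 10 strongest have been given with the chromosome 2 and chromosome 15 clusters. Of these 10, 8 lay inside a cluster and 2 in a flank, and none overlapped a receptor model. The weakest region by mean rank was chr14:51088628-51088940, with 2.52 and 3.26, and after it came chr13:22992194-22992393, 18856 bp from Vmn1r213, with 3.37 and 4.67.

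Regions that overlapped a receptor model numbered 33, with median folds of 10.3 and 7.93. The strongest was chr3:64205979-64206338 in Vmn2r1, with 27.1 and 22.2, which also overlapped the pseudogene Gm18294. The region chr10:78507645-78508155 in Olfr1358 had 24.7 and 22.2 and overlapped the lncRNA Gm47944. In Vmn1r222, chr13:23231990-23232319 had 19.8 and 19.9. In Olfr550, chr7:102571226-102571945 had 24.1 and 15.7. The value in replicate 1 was higher at 19 of the 33.

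A lone Vmn1r gene on chromosome 1, Vmn1r1, had 3 regions within 20 kb, all strong. They lay 608, 6811 and 16416 bp from it and had folds of 22.6, 20.2 and 20.7 in replicate 1 and 24.0, 20.7 and 21.1 in replicate 2. Olfr1402, alone on chromosome 3, also had 3, at 1863, 12320 and 15581 bp. Their folds were 7.84, 27.2 and 16.1 in replicate 1 and 8.00, 23.0 and 15.7 in replicate 2. The 3 sites at Vmn1r1 were alike in fold, and those at Olfr1402 were not.

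At the 20 kb limit, the 3 regions just inside, at 19944, 19888 and 19793 bp, had folds of 9.01, 18.8 and 11.2 in replicate 1 and 5.70, 22.4 and 16.1 in replicate 2. The 3 just outside, at 20029, 20082 and 20087 bp, had 5.56, 3.58 and 5.96, and 31.6, 6.25 and 8.32. The first of these shares its replicate 2 peak with the region near Olfr1414 given above. At the 1000 bp limit, those just inside were 1005, 1011 and 1023 bp from an end of AW551984, Pfpl and Skp1. Their folds were 10.4, 5.64 and 8.91 in replicate 1 and 6.75, 8.00 and 11.98 in replicate 2. The regions at AW551984 and Skp1 lay in the bodies of these genes. They covered 117 and 250 bases of the 250 before an inner listed start. Just outside, a region 812 bp from an end of Rnase11 had 32.2 and 33.7. One 831 bp from an end of Sprn had 8.17 and 7.72, and one 671 bp from an end of Ubd had 7.43 and 8.44.

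The regions were narrow. The median width was 336 bp in replicate 1 and 326 bp in replicate 2, a mean of 331 ± 7.07 bp (SD, n = 2 libraries). Over all shared regions the medians were 356 and 355 bp, over other distal regions 337 and 332 bp, in deserts 336 and 321 bp, and at gene ends 522 and 537.5 bp. Receptor sites were thus as wide as other distal regions to within the difference between the libraries, and narrower than gene ends. A width above 500 bp was found for 21.3% and 18.5%, against 15.8% and 16.6% of other distal regions and 24.0% and 25.1% of all shared regions. The smallest width, 200 bp, is the least in either list and was found for 5 and 10 of the 352.

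The widest by mean of both peaks was chr6:57824413-57825472, with 1060 and 1090 bp, 18092 bp from Vmn1r21 and over an inner start of Vopp1. Its folds were low, at 6.39 and 7.44. The region chr14:14347027-14348382 was 1356 bp wide in replicate 1 and 687 bp in replicate 2, and stood 1115 bp from an end of Il3ra. Among the widest, the 2 that were away from other genes were chr19:11851721-11852629, 2366 bp from Olfr1418, with 909 and 1121 bp, and chr7:99738578-99739503, 2483 bp from Olfr520, with 926 and 983 bp. Their folds were 20.1 and 13.1, and 16.1 and 16.7.

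The number of tags behind a region, recovered from its fold and p-value, was low. The median at the summit was 41.5 tags in replicate 1 and 35 in replicate 2, against 52 and 51 over all shared regions, 40 and 34 in deserts and 85 and 95 at gene ends. The range was 10 to 529 and 11 to 537. The local background was at the lowest value of its library in 44.0% and 52.6% of the 352, against 29.0% and 30.4% of all shared regions and 52.4% and 57.3% of desert regions. A fold here rests on fewer tags over a lower background than the same fold at a gene end.

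Both libraries ranked the regions alike, with Pearson's r of 0.78 and Spearman's rho of 0.76 for log2 fold over 352 regions. The values were 0.84 and 0.83 over all shared regions, and 0.77 and 0.76 in deserts. These coefficients describe the regions, which share both libraries, and are not a test. Replicate 1 gave the higher fold at 202 of the 352, or 57.4% (95% Wilson interval 52.2% to 62.4%), against 49.1% of all shared regions. The share was 52.6% for other distal regions, 57.9% in deserts and 37.0% at gene ends. Summed tags in replicate 2 were 0.896 times those in replicate 1 for the 352, 0.926 times in deserts, 1.01 times for other distal regions and 1.13 times at gene ends. The lean of the receptor sites to replicate 1 was near that of desert regions, and its part in the results by fold was not tested.

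**Figure D5:**
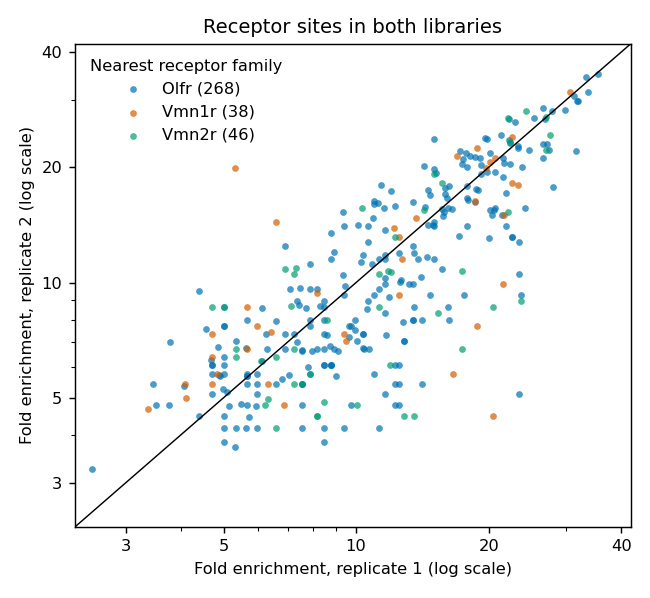
Fold enrichment of each of the 352 regions in replicate 1 (horizontal axis) and replicate 2 (vertical axis), both on log scales, coloured by the family of the nearest receptor gene; the line marks equal values. Points below the line are the 202 regions with the higher fold in replicate 1.

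Fold was more than 1.5 times higher in replicate 1 at 59 regions (16.8%) and in replicate 2 at 21 (5.97%), against 10.3% and 7.70% of all shared regions. Among desert regions the shares were 17.9% and 7.94%. The largest ratio was at chr6:42558397-42559001, 19377 bp from Olfr455, with 23.4 in replicate 1 and 5.12 in replicate 2, from 194 and 15 tags. The region chr7:12274370-12274798, 13691 bp from Vmn1r81, had 20.4 and 4.48, from 79 and 13 tags. In the other direction, chr13:23232350-23232562 at Vmn1r222 had 5.30 and 19.9, but its replicate 2 peak is also the partner of the stronger region beside it. Next were chr6:123697277-123697623 near Vmn2r23, with 13.5 and 4.48, and chr7:10435928-10436541 near Vmn1r67, with 16.6 and 5.76.

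Fewer peaks recurred around receptor genes than elsewhere when counted from replicate 1. By position, 592 peaks of replicate 1 met the rule and replicate 2 overlapped 352 of them, or 59.5% (95% Wilson interval 55.5% to 63.3%). The share was 78.0% over all its peaks, 75.1% over other distal peaks and 65.2% in deserts. From replicate 2, 353 of 427 peaks were found in replicate 1, or 82.7% (78.8% to 86.0%), against 84.9%, 83.1% and 82.6%. Peaks of 1 library alone numbered 240 and 74, with medians of 18 and 16 tags. The gap between the libraries was therefore large here, and it lay mostly in weak peaks. In replicate 1 recurrence was 28.1%, 48.8%, 79.9% and 95.6% from the lowest to the highest quartile of fold. For other distal peaks it was 46.6%, 66.2%, 90.2% and 98.9%, and for desert peaks 31.4%, 51.9%, 83.1% and 98.4%.

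The regions were spaced much as those of gene deserts. The median distance to the nearest other receptor site was 14.9 kb, against 14.8 kb among desert regions, 6.96 kb among other distal regions and 4.98 kb among all shared regions. Joining regions no more than 10 kb apart gave 193 single regions, 46 pairs and 15 groups of 3. The groups above that size were 1 of 4, 2 of 5 and 1 of 8. Another of the 352 was found within 5 kb for 120 regions, or 34.1%, against 50.1% of all, 41.1% of other distal and 28.5% of desert regions. Within 20 kb it was found for 189, or 53.7%, against 84.0%, 77.6% and 56.3%.

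The group of 8, chr14:51063347-51089847, surrounds Olfr750, which had the most regions within 20 kb of any receptor gene. Transfer RNA genes, which RNA polymerase III transcribes, lie in it: 5 of its 8 regions overlapped annotated tRNAs. The last of them, chr14:51089106-51089847, over n-TYgta10, had the most tags of all 352 regions, 529 and 537, with folds of 18.0 and 16.5. Its neighbour over n-TTtgt1 was the weakest region of all, given above, yet it held 74 and 107 tags. The region chr14:51064489-51065658, over n-TPagg4 and n-TTtgt3, was among the widest, at 1170 and 900 bp, with folds of 6.78 and 5.59. Some of these sites are thus tRNA genes that stand among receptor genes.

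Of the groups of 5, chr17:37185542-37212043 runs along Olfr94 and Olfr95 and includes the windows of both genes printed above. Its folds ran from 7.21 to 21.7 in replicate 1 and from 7.36 to 22.1 in replicate 2. The highest in replicate 1 was chr17:37203651-37204167, 5685 bp from Olfr94, and in replicate 2 it was chr17:37190763-37191061, 5745 bp from it. The other group of 5, at Olfr1417, was weaker, from 5.30 to 11.6 and from 3.72 to 11.5. Olfr1358, Olfr1359, Olfr1417, Olfr279 and Olfr94 each had 5 regions within 20 kb.

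In all, 249 of the 352 regions (70.7%) overlapped no annotated gene, and 24 (6.82%) lay in the body of another protein-coding gene. These shares were not computed over all shared regions, so they cannot be read as particular to the receptor sites. Regions at Mgat1, Skp1 and Vopp1 covered the whole window of 250 bases before a listed start of that gene, and 1 at AW551984 covered part. A tRNA gene was overlapped by 8 (2.27%), against 0.238% of all shared regions. Most of these 8 stood in the group around Olfr750, so the share rests largely on 1 locus. Pseudogenes were overlapped by 29 (8.24%), against 0.983%, and 3 regions overlapped a receptor pseudogene. Long noncoding RNA genes were overlapped by 16 (4.55%), against 12.9%. Regions over any noncoding gene or pseudogene numbered 54, or 15.3%, which was close to the 14.6% of all shared and 15.2% of other distal regions. They had median folds of 9.77 and 8.68, and regions in no annotated gene had 11.9 and 9.69.

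Genes that serve the receptors were listed by role and are set beside the 65.8% of all protein-coding genes that had a gene-end region. Of 12 olfactory signalling genes, 7 had a gene-end region. Cnga4, a subunit of the olfactory cyclic nucleotide-gated channel, had folds of 23.0 and 22.8, and Ric8b, an exchange factor for the olfactory G protein, had 20.9 and 22.1. Adcy3, the adenylyl cyclase of olfactory cilia, had 9.67 and 8.29. There was none at Omp, the marker protein of mature olfactory neurons, at the channel genes Cnga2, Cngb1 and Ano2, or at Stoml3. Of 3 genes for receptor trafficking, Reep1 had one, with 10.2 and 9.44, and Rtp1 and Rtp2 had none.

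Of 15 genes that regulate receptor choice or its heterochromatin, 13 had a gene-end region. The highest was at Cbx5, which encodes the heterochromatin protein HP1 alpha, with folds of 29.0 and 30.8. Setdb1, an H3K9 methyltransferase, had 21.8 and 26.7. Of the Ebf factors, Ebf1 had 18.1 and 24.2, Ebf3 had 5.06 and 4.25, and Ebf4 had 5.75 and 5.14. Kdm1a, a histone demethylase needed for receptor choice, had 13.1 and 12.9. Lhx2, the homeodomain activator, had low folds of 6.12 and 4.97, and its partner Ldb1 had none, nor did Ebf2.

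All 4 vomeronasal signalling genes had one. Gnai2, the G protein of V1R neurons, had 24.3 and 26.7, and B2m, a partner of class I molecules, had 16.4 and 22.5. Trpc2, the cation channel of vomeronasal neurons, had 5.81 and 5.76, and Gnao1, the G protein of V2R neurons, had 5.27 and 5.83. Of 9 other chemoreceptors, Taar2 and Taar4 had one. At Taar2 the folds were 8.47 and 18.9, and at Taar4 they were 17.9 and 8.32, so the libraries differed at both. These lists mix genes of wide expression with genes of olfactory neurons.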

How the data were processed

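The members, gene lists and settings were chosen with earlier results of these data known. Both libraries had 1 deposited peak list each, called per sample. The submitters' processing notes name MACS2 2.1.1, the peak caller, Bowtie2 2.3.4.1, the aligner, Picard 2.18.23, Trim Galore, deepTools 3.5.0 and bedtools 2.29.2; builds were given as mm10 and GRCm38.p3. Their settings are not given in the sources used here. Among them is the handling of reads that map to several places, which can lower counts in families of similar genes. Fold enrichment is the ratio the authors deposited for each peak. The −log10 p-value is also as deposited by the authors. The −log10 q-value, deposited as well, was used in 1 alternative, with a limit of 5 in both libraries. The score, also deposited, was not used.

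Tags at the summit were recovered as the whole number that solved fold and p-value together, where fold is (tags + 1)/(background + 1) and p is a Poisson tail; 2 peaks of replicate 2, not among the 352 regions, had no unique solution. Read depth is unknown. A replicate 1 peak was paired with the replicate 2 peak of largest overlap. Genes and promoter windows came from RefSeq tables on GRCm38.p6, which shares its chromosome coordinates with the peaks' build; exons were not used. Scripts ran in Python 3.11.15 with pandas 2.3.3 and SciPy 1.17.1 and were tested on simulated data.

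Named regions were the 10 strongest and 5 weakest by mean percentile of fold, the 5 widest, the strongest of those in a receptor model, the 5 with the largest ratio between libraries and 3 on each side of each limit. Named clusters were the 5 with most receptor genes, the 5 with most regions and those of 10 or more genes with none. The other regions and groups named in the clusters, at lone genes and around Olfr750, Olfr94 and Olfr1417 were chosen after their values were seen. One group of 2 libraries allowed no test.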

Additional observations from a re-analysis of the deposited data

How the results depend on the processing

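Windows, limits, cluster gaps and single libraries were varied. No paired analysis was possible because the libraries form 1 group. Of 91 alternative values, 67 stayed within the spread of the libraries, within 1.5 times a count or within a 95% Wilson interval. The interval was used for the share of regions with the higher fold in replicate 1. For the share of peaks found in both libraries the spread was 16.4 points, so staying within it says little. For density and the share inside a cluster, the spread came from the single-library values, which were themselves among the alternatives. The 352 regions became 539 with a window of 50 kb, 168 with a fold above the library median in both libraries, and 427 to 592 in a single library. Median fold was 16.8 above the median and 7.57 to 7.84 in single libraries. Median width was 340 bp with no limit on other gene ends, 381.5 bp above the median and 291 to 300 bp in single libraries. Density was 4.02 per Mb above the median and 10.2 to 14.2 in single libraries, where other distal sequence held 30.1 and 33.3. The share inside a cluster was 90.4% with 10 kb, 70.5% with 50 kb, 80.9% with no end limit, 86.2% with 2500 bp, 82.1% above the median, 83.8% to 85.6% in single libraries, 70.5% with a cluster gap of 100 kb and 86.1% with 1 Mb. Receptor genes with a region numbered 203 with 10 kb, 610 with 50 kb, 205 above the median and 396 to 555 in single libraries. Fewer libraries, a wider window or a higher fold limit change these counts by construction. For shared regions, density in other distal sequence was 2.58 to 3.15 times that near receptors with windows of 10 to 50 kb and end limits of 1000 and 2500 bp. Low tag numbers limit weak sites: single-library peaks had medians of 18 and 16 tags.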
